A study of Mus musculus with 10 samples.

Results

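Cd163, Clec10a, Mrc1, Folr2, Lyve1, F13a1, Timd4 and Retnla are 8 of the 51826 genes listed for each mouse, and they are described here as markers of the resident, M2-like macrophages of inguinal white adipose tissue (iWAT). They were picked by name with their exon read counts by diet group already known, so the diet differences of these 8 genes are given as a description, without a test. All 8 were measured in every mouse, with between 87 and 2176 exon reads each, and all 8 passed the filter on low counts in every comparison.

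RNA of iWAT, a subcutaneous fat pad, was sequenced from male C57BL/6 mice to learn how a father's low-protein diet changes gene expression in his sons and how the diet acts on the fathers' generation itself. In F1, all mice ate the control diet (CD) and were 5 weeks old; 3 were sons of CD-fed fathers, called CD offspring here, and 3 were sons of fathers fed the low-protein diet (LPD), called pLPD offspring, all mothers having eaten CD. In F0, males of 10–12 weeks of age had eaten CD (2 mice) or LPD (2 mice) themselves from weaning on. Each mouse gave 1 library, and the 3 offspring of a group had different mothers. Generation, age and the set of libraries coincide, so differences between F1 and F0 cannot be told apart from differences of age or library set.

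Resident macrophages of fat lie along vessels and between adipocytes, where they take up debris, dying cells and sugar-bearing or haem-bearing proteins through surface receptors. Signals from interleukin 4 and interleukin 13, carried by STAT6, raise several of the genes that mark the M2-like state, while CSF1 keeps the cells alive. The 8 genes fall into receptors for sugars and haemoglobin (Cd163, Clec10a, Mrc1), receptors for folate and hyaluronan (Folr2, Lyve1), a receptor for dying cells (Timd4), a fibrin cross-linking enzyme (F13a1) and a secreted protein of the resistin family (Retnla).

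Promoter sequence is shown for 3 of the genes that were low together, because their start sites differ in the motifs they hold. The windows run from 250 bases before to 50 bases after a RefSeq start site on GRCm38.p6, and 6 of the 8 genes have an entry (not Clec10a and Lyve1). The 3 printed windows are on the plus strand, while those of Folr2 and F13a1 are on the minus strand. Capitals mark matches, on either strand, to 5 motifs: the core of PU.1 sites (GAGGAA), a MAF half-site (TGCTGAC), the STAT6 palindrome (TTC and GAA parted by 4 bases), a C/EBP site (TTGCGCAA) and the TATA box (TATAAA). The window of Cd163 (chr6:124304401-124304700) holds none of them, that of Mrc1 (chr2:14229164-14229463) holds 3 PU.1 cores, and that of Retnla (chr16:48842359-48842658) holds a PU.1 core, a STAT6 palindrome, a MAF half-site and a TATA box, in that order.
Cd163: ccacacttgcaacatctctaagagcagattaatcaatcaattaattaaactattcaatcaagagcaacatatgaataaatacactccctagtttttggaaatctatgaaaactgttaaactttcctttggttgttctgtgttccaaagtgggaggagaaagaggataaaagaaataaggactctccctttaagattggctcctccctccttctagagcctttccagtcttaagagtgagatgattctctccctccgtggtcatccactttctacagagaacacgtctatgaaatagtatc
Mrc1: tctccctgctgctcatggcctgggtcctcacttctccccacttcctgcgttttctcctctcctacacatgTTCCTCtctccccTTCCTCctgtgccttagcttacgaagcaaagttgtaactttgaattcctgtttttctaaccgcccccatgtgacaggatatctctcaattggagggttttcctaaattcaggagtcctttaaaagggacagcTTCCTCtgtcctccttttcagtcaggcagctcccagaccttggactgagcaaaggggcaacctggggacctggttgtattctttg
Retnla: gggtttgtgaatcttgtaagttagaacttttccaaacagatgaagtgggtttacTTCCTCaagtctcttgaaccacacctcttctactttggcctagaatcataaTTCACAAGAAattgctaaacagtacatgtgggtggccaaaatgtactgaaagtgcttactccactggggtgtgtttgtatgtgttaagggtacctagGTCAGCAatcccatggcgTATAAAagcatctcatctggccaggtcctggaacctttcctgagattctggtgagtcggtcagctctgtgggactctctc
In Retnla the matches begin 196, 145, 48 and 30 bases before the start site, and in Mrc1 the PU.1 cores begin 180, 167 and 35 bases before it. Of the other genes, F13a1 holds PU.1 cores in both of its windows, Timd4 holds a MAF half-site, and the 2 windows of Folr2 hold none. Among all 32851 windows of the same length, 28.3% hold the PU.1 core, 4.67% the MAF half-site, 6.95% the STAT6 palindrome, 0.183% the C/EBP site and 13.6% the TATA box. A match describes letters in the window and is no evidence of binding.

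The pLPD offspring had lower exon counts than CD offspring for all 8 genes, and every pLPD mouse lay below every control mouse for 7 of them, the exception being Lyve1. The log2 fold changes ranged from -0.45 for Timd4 to -1.65 for Retnla with a median of -0.64, against a median of 0.01 over the 14049 genes tested. Groups lay apart in this direction for 11% of all genes tested, and 48.6% had a log2 fold change below 0. These comparisons chose the genes, so nothing is read from their count. In whole-tissue RNA, fewer macrophages and less RNA per macrophage cannot be told apart.

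Cd163 (ENSMUSG00000008845, chr6:124304656-124330527 of mm10, plus strand) encodes the scavenger receptor that clears haemoglobin bound to haptoglobin. Its level in CPM (exon reads of the gene relative to library size, scaled over all 10 libraries) was 93.6, 107 and 132 in CD offspring and 60.2, 69.2 and 73.6 in pLPD offspring. The highest pLPD mouse thus lay below the lowest control, and the level fell by 38.4%, with a log2 fold change of -0.70 (SE 0.13). In F0 the level was 96.2 and 106 CPM in CD-fed mice and 70.7 and 75.1 CPM in LPD-fed mice. These groups did not overlap either, with a log2 fold change of -0.47 (SE 0.09), a fall of 27.9%.

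Clec10a (ENSMUSG00000000318, chr11:70156197-70170834, plus strand) encodes a C-type lectin that binds galactose and N-acetylgalactosamine. It had 56.7, 56.6 and 58.4 CPM in CD offspring and 30.2, 27.7 and 38.4 CPM in pLPD offspring. The controls lay within a narrow band, with a coefficient of variation of 1.79%, and the pLPD mice were all far below it, at a log2 fold change of -0.83 (SE 0.12). In F0 the gene had 66.9 and 68.3 CPM with CD and 49.1 and 50.0 CPM with LPD. Mice of 1 diet were close to each other there, and the log2 fold change was -0.44 (SE 0.08).

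Clec10a shares coding sequence with its neighbour in the family, Mgl2, which matters because reads had 36 bases. Of the 3097 distinct 36-base words in its GENCODE vM21 transcripts, 405 occur in another gene, 374 of them in Mgl2, and 90.5% of its exon reads matched uniquely. The longest shared coding stretch has 183 bases, from position 388 to 570 of the Clec10a coding sequence, and is printed whole, without capitals since no base in it differs.
Clec10a and Mgl2: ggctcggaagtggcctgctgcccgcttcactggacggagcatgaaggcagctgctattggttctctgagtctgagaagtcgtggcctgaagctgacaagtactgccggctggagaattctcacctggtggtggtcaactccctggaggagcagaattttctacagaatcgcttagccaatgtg
Reads from this stretch could be assigned to either gene. With uniquely matching reads alone, the log2 fold change of Clec10a was -0.83 in F1 and -0.45 in F0. Mgl2 itself, also a lectin of M2-like macrophages, had 24.0 ± 2.68 CPM (SD, n = 3) in CD offspring and 17.9 ± 4.74 (SD, n = 3) in pLPD offspring, a difference that did not pass edgeR's quasi-likelihood test (log2 fold change -0.41, SE 0.18, Benjamini-Hochberg adjusted p = 0.300). In F0 its log2 fold change of -0.38 (SE 0.11) did not pass either (the same edgeR test, adjusted p = 0.115), although both LPD-fed mice lay below both CD-fed mice.

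**Figure D1:**
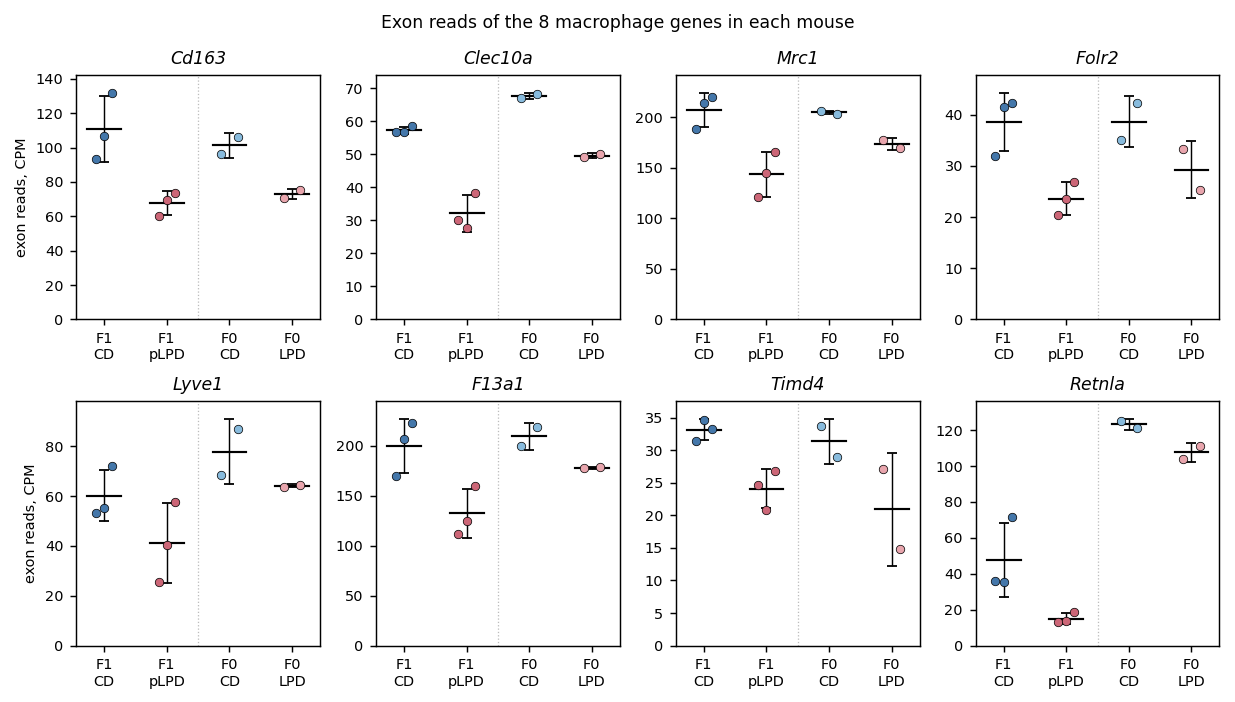
Exon reads of the 8 genes in each mouse, in CPM on the y axis from 0, for the 4 groups on the x axis; points are mice, horizontal bars are group means and vertical bars are 1 SD (n = 3 in F1, n = 2 in F0). The pLPD or LPD mice lie below the CD mice of their generation for every gene except Lyve1 in F1, where the ranges of 25.5 to 57.8 and 53.3 to 72.0 CPM overlap, and Retnla is lower in all F1 mice than in any F0 mouse.

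Mrc1 (ENSMUSG00000026712, chr2:14229392-14332057, plus strand) encodes the mannose receptor CD206. It was at 188, 214 and 219 CPM in CD offspring and at 121, 145 and 165 CPM in pLPD offspring. The groups lay apart, and the log2 fold change was -0.52 (SE 0.11). In F0 it was at 206 and 203 CPM with CD and at 178 and 169 CPM with LPD, again apart but closer together, at -0.24 (SE 0.09) on the log2 scale.

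Folr2 (ENSMUSG00000032725, chr7:101839988-101857194, minus strand) encodes folate receptor beta, which resident macrophages carry on their surface. In F1 it had 32.0, 41.5 and 42.3 CPM in CD offspring against 20.3, 23.6 and 26.9 CPM in pLPD offspring. The log2 fold change was -0.70 (SE 0.14), and no mouse of 1 group reached the other. In F0 the levels of 35.1 and 42.2 CPM with CD and 33.3 and 25.3 CPM with LPD lay next to each other, with a log2 fold change of -0.40 (SE 0.15). Its counts are the least certain of the 8, since only 57.6% of its exon reads matched uniquely: 876 of its 1571 36-base words also lie in Gm10602 (chr7:101836503-101842771, plus strand), a gene annotated as antisense to it, which itself had 15 to 55 exon reads per mouse. With uniquely matching reads, the F1 log2 fold change was -0.55.

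Lyve1 (ENSMUSG00000030787, chr7:110850607-110863239, minus strand) encodes a hyaluronan receptor of vessel-associated macrophages and of lymphatic endothelium. In F1 it had 53.3, 55.2 and 72.0 CPM in CD offspring and 25.5, 40.3 and 57.8 CPM in pLPD offspring. Lyve1 was the 1 gene of the 8 with overlapping groups, and its coefficient of variation in pLPD offspring, 39.3%, was the widest of the 8 genes in that group. Its log2 fold change was -0.54 (SE 0.22). In F0 it had 68.7 and 87.1 CPM with CD and 63.8 and 64.6 CPM with LPD, which lay apart at a log2 fold change of -0.28 (SE 0.12).

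F13a1 (ENSMUSG00000039109, chr13:36867178-37050244, minus strand) encodes the A subunit of coagulation factor XIII, which cross-links fibrin. It had 169.9, 207 and 222 CPM in CD offspring and 112, 125 and 159.8 CPM in pLPD offspring, and its log2 fold change was -0.58 (SE 0.13). In F0, 199.6 and 219 CPM with CD stood against 177 and 179 CPM with LPD, with a log2 fold change of -0.23 (SE 0.09). The groups lay apart in both generations.

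Timd4 (ENSMUSG00000055546, chr11:46810800-46844332, plus strand) encodes TIM-4, a phosphatidylserine receptor through which long-lived resident macrophages take up dying cells. It had 31.4, 34.7 and 33.2 CPM in CD offspring and 24.6, 20.9 and 26.9 CPM in pLPD offspring, at a log2 fold change of -0.45 (SE 0.12). In F0, 33.8 and 28.9 CPM with CD stood against 27.0 and 14.8 CPM with LPD. This was the gene with the largest F0 difference of the 8, -0.57 on the log2 scale, but also with the largest standard error, 0.23, because the 2 LPD-fed mice differed. Without replicate 1 of the LPD-fed mice the F0 value was -1.08, and without replicate 2 it was -0.20.

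Retnla (ENSMUSG00000061100, chr16:48842552-48844461, plus strand) encodes resistin-like molecule alpha, a secreted protein known to be induced by interleukin 4 and interleukin 13. In F1 it had 36.0, 35.4 and 71.6 CPM in CD offspring and 13.2, 13.5 and 18.6 CPM in pLPD offspring. This was the largest F1 difference of the 8 genes, a fall of 68.1% with a log2 fold change of -1.65 (SE 0.27), and replicate 3 of CD offspring stood high within its group. Without that mouse, the F1 log2 fold change was -1.23. In F0, 125 and 121 CPM with CD stood against 104 and 111 CPM with LPD, at a log2 fold change of -0.19 (SE 0.09), the smallest F0 difference of the 8. The F0 mice had more Retnla than any F1 mouse: CD-fed F0 mice averaged 123 ± 3.07 CPM (SD, n = 2) and CD offspring 47.7 ± 20.8 CPM (SD, n = 3).

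Per kilobase of exon, which allows genes to be set side by side, Retnla was the most abundant of the 8 genes in 3 groups. In CD-fed F0 mice it reached 206 ± 5.14 CPM per kb (SD, n = 2), followed by F13a1 at 53.3 ± 3.53, Mrc1 at 32.1 ± 0.277 and Lyve1 at 26.7 ± 4.47. Folr2 at 25.0 ± 3.24 and Clec10a at 23.3 ± 0.348 did not differ from Lyve1 beyond their spread, while Cd163 at 18.5 ± 1.32 and Timd4 at 14.4 ± 1.58 CPM per kb came last. In CD offspring the order began with Retnla at 79.7 ± 34.7, F13a1 at 50.9 ± 6.88 and Mrc1 at 32.5 ± 2.65 CPM per kb (SD, n = 3), and Retnla and F13a1 did not differ beyond their spread. Folr2, Lyve1, Cd163 and Clec10a followed at 25.0 to 19.7 CPM per kb, no neighbours in this order differing beyond their spread, and Timd4 was lowest at 15.2 ± 0.746. In pLPD offspring F13a1 had the highest mean at 33.7 ± 6.28, within the joint spread of Retnla at 25.3 ± 5.13, then came Mrc1 at 22.5 ± 3.50 CPM per kb (SD, n = 3), and Clec10a at 11.1 ± 1.92 had the lowest level together with Timd4 at 11.1 ± 1.39. In LPD-fed F0 mice the order was that of CD-fed mice, from Retnla at 179.9 ± 8.81 to Timd4 at 9.63 ± 3.98 CPM per kb (SD, n = 2).

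**Figure D2:**
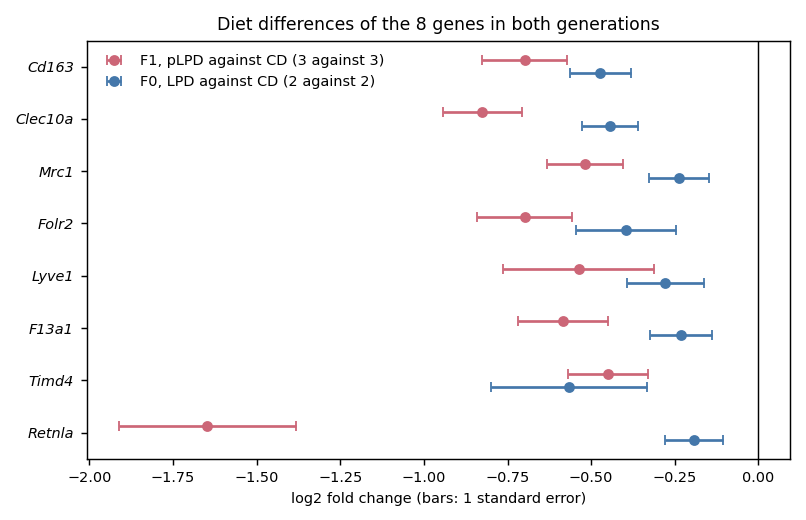
Log2 fold change on the x axis of each of the 8 genes, for pLPD offspring against CD offspring (F1) and for LPD-fed against CD-fed males (F0); bars are 1 standard error of the edgeR fit. All 16 values lie below 0, the F1 value is the lower of the pair for every gene except Timd4, and Retnla in F1 stands apart at -1.65.

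At a Benjamini-Hochberg adjusted p under 0.05 in edgeR's quasi-likelihood test over all genes, 4 of the 8 genes were called lower in pLPD offspring (Cd163, Clec10a, Folr2 and Retnla), where 1.02% of all tested genes were called lower. The F1 count rests on single mice: it was 1 without replicate 1 and 2 without replicate 2 of CD offspring, 1, 0 and 6 without replicates 1, 2 and 3 of the pLPD offspring, and it stayed at 4 only without replicate 3 of CD offspring. In F0, 2 genes were called lower (Cd163 and Clec10a), where 1.32% of all genes were called lower, and the count was 1, 0, 1 and 0 without each mouse in turn (the CD-fed mice first). In F0 every LPD-fed mouse lay below every CD-fed mouse for 8 of the 8 genes, where this was so for 23.9% of all 14581 genes tested. The median log2 fold change in F0 was -0.34 for the 8 genes and 0.00 for all genes. For 7 of the 8 genes the groups lay apart in the same direction in both generations, as they did for 3.04% of the 13870 genes tested in both, and 0 of the 8 were lower in F1 and higher in F0 with groups apart, as 2.73% of those genes were. In F0, 49.9% of all genes had a log2 fold change below 0. All of these comparisons are of the kind that chose the genes, and nothing is read from the counts.

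Set side by side, the F1 log2 difference was larger than the F0 difference for 7 of the 8 genes. The difference between the generations' diet effects (F1 minus F0, log2 scale) was -1.46 (SE 0.35) for Retnla, -0.39 (SE 0.16) for Clec10a, -0.36 (SE 0.20) for F13a1 and -0.31 (SE 0.23) for Folr2. It was -0.29 (SE 0.17) for Mrc1, -0.27 (SE 0.33) for Lyve1 and -0.24 (SE 0.19) for Cd163. For Timd4 it was 0.11 (SE 0.28), and it turned to -0.25 without replicate 2 of the LPD-fed mice. At an adjusted p under 0.05, 0 of the 8 genes were called in this comparison of generations, where 1.25% of all 15111 genes tested were, 2 of the 8 had an unadjusted p under 0.05, and Retnla's call came and went with the fit (it was called in 3 of the 7 other fits).

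Within the F1 groups, the 8 genes tended to rank the mice alike. Replicate 3 was the highest pLPD mouse for 8 of the 8 genes, and replicate 1 the lowest for 6. Among CD offspring, replicate 3 was highest for 7 genes and replicate 1 lowest for 6. The F0 mice were not ranked alike, since in both diet groups replicate 1 was lowest for 5 genes and replicate 2 for 3. The intron share of replicates 1, 2 and 3 was 48.4%, 41.8% and 40.7% in pLPD offspring and 37.5%, 36.0% and 37.4% in CD offspring. Its part in the ranking was not tested. Across the 10 mice, the deviations of log2 CPM from the group means had a Pearson r between -0.10 and 0.91 over the 28 gene pairs, with a median of 0.64. Mrc1 and F13a1 were the most alike pair (r = 0.91), Mrc1 and Lyve1 had 0.89, and Timd4 was the least like the others, between -0.10 with Cd163 and 0.51 with Folr2. These correlations describe 10 mice whose genes share a library and its scaling. By the same measure over 11605 genes, Itch, Rnd3, Xbp1, Por and Acvr1 varied most like Cd163 (r from 0.98 to 0.99). Bcl2l2, Klhl5, Gab1, Klc1 and Stx12 varied most like Clec10a (r from 0.97 to 0.99). The 2 mice of an F0 group deviate from their mean by equal and opposite amounts, so fewer than 10 values are free. These genes were picked from 11605 for the highest r, so nothing is read from its size.

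Other genes of resident macrophages were also lower in F1. They come from a list of the same cell state, chosen with earlier results of these data known. Of the 23 tested, 21 had a log2 fold change below 0, against 48.6% of all genes tested. Their median was -0.55, against a median of 0.01 over all genes. Where 1.02% of all tested genes were called lower, 6 of the 23 fell past the threshold. Cd209f, a lectin of the DC-SIGN family, fell by 1.24 on the log2 scale (SE 0.12, edgeR adjusted p = 0.00141), from 50.9 ± 6.52 to 21.3 ± 0.598 CPM (SD, n = 3 each). Gas6, which bridges dying cells to phagocyte receptors, fell by 0.79 (SE 0.10, edgeR adjusted p = 0.00610), and Siglec1, a sialic acid receptor, fell by 0.55 (SE 0.09, edgeR adjusted p = 0.0196). Cd209b, a lectin of the same family as Cd209f, fell by 0.66 (edgeR adjusted p = 0.0283). Maf, a macrophage transcription factor, fell by 0.50 (edgeR adjusted p = 0.0448) and is named after its value was seen. With each library's exon share as a term of the model, an alternative chosen after the data were seen, 0 of these genes were called in F1. Among the reads on protein-coding genes, the share on introns moved with the paternal diet, at 36.0% to 37.5% in CD offspring and 40.7% to 48.4% in pLPD offspring, as did the share of mitochondrial rRNA among the reads on genes, at 9.29% to 10.5% and 13.5% to 18.2%, and their part in the result cannot be told apart from the diet. The count of 6 was 2 without replicate 1 or 2 of either F1 group, 10 without replicate 3 of CD offspring and 7 without replicate 3 of the pLPD offspring. In F0, 15 of the 23 genes were below 0 with a median of -0.10. Where 1.32% of all tested genes were called lower, 1 of the 23 fell past the threshold: Cbr2, a carbonyl reductase, at -0.68 (SE 0.14, edgeR adjusted p = 0.0428). That call was lost without either CD-fed mouse or without replicate 2 of the LPD-fed mice, and the count was 2 without replicate 1 of the LPD-fed mice.

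Genes that mark macrophages in general were also lower in F1, while in F0 none of them passed the test. All 19 tested had a log2 fold change below 0 in pLPD offspring (median -0.52), against 48.6% of all genes tested. Where 1.02% of all tested genes were called lower, 6 of the 19 fell past the threshold. Among them were Csf1r, the CSF1 receptor, at -0.54 (SE 0.08, edgeR adjusted p = 0.0155), Adgre1, which encodes F4/80, at -0.64 (SE 0.10, edgeR adjusted p = 0.0196), and C1qa, a complement chain, at -0.73 (SE 0.14, edgeR adjusted p = 0.0403). Lyz2, lysozyme, fell by 0.51 (edgeR adjusted p = 0.0466), C1qc fell by 0.70 (edgeR adjusted p = 0.0489), and Cd68 at -0.52 did not pass (edgeR adjusted p = 0.0683). With the exon share of the library as a term, 0 of the 19 were called in F1; the intron and mitochondrial rRNA shares given above for the other resident genes moved with these genes too. Without replicate 1 or 2 of CD offspring, or without replicate 2 of the pLPD offspring, this count was 0; it was 1 without replicate 1 of the pLPD offspring. In F0, 7 of the 19 were below 0, the median was 0.07, 0 were called by edgeR and 4 had an unadjusted p under 0.05. Every LPD-fed mouse lay below every CD-fed mouse for 7 of the 19, among them Csf1r, C1qa and Mertk. This was so for 23.9% of all genes tested, and for 5 of the 19 every LPD-fed mouse lay above. The diet effects of the generations differed past the threshold for Adgre1 (F1 minus F0 -0.70, SE 0.14, edgeR adjusted p = 0.0353), whose level in F0 was 30.7 ± 1.29 CPM with CD and 31.7 ± 1.88 with LPD (SD, n = 2 each).

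**Figure D3:**
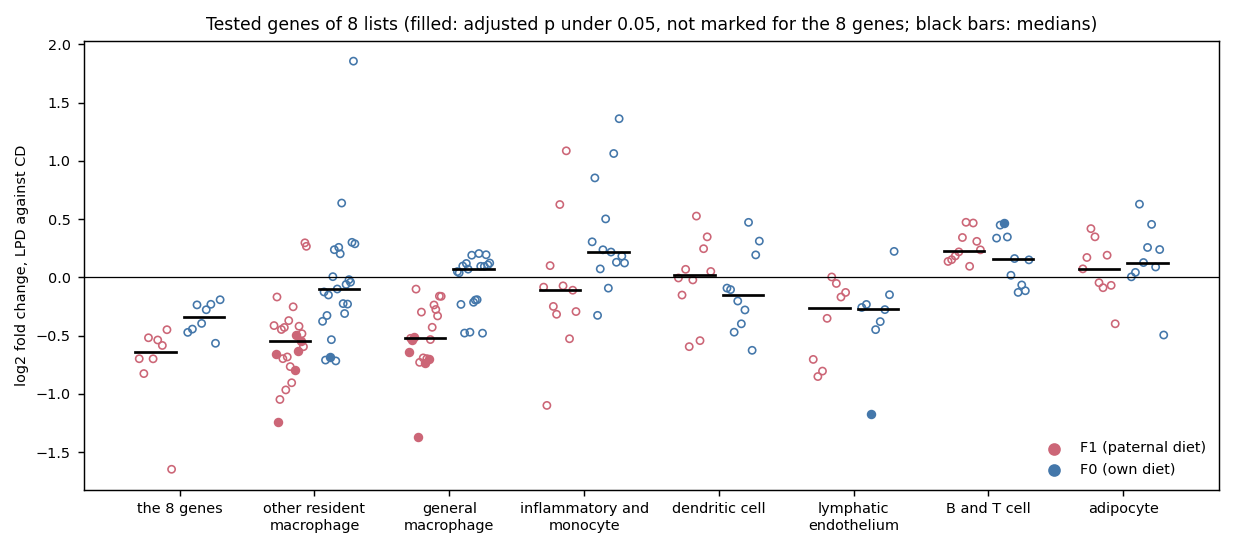
Log2 fold changes on the y axis of the tested genes of 8 lists on the x axis, F1 in red and F0 in blue; each point is a gene, black bars are medians, and filled points have an edgeR adjusted p under 0.05 (not marked for the 8 genes). The medians of the 8 genes are -0.64 in F1 and -0.34 in F0, while that of the general macrophage genes is -0.52 in F1 and 0.07 in F0.

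The summed level of the 19 general macrophage genes was 1401 to 1653 CPM in CD offspring and 1035 to 1146 CPM in pLPD offspring. In F0 it was 1407 to 1464 CPM with CD and 1365 to 1453 CPM with LPD, so these groups overlapped. Relative to that sum, the 8 genes were described again in each mouse. In F1, every pLPD mouse lay below every control mouse for 3 of the 8 genes (Cd163, Clec10a and Retnla), where 0.705% of all genes did. In F0, every LPD-fed mouse lay below every CD-fed mouse for 8 of the 8, where 19.6% of all genes did. The sum itself was lower in every pLPD mouse than in any control, which raises the ratio of every gene there. These ratios hold the exon counts that chose the genes, and nothing is read from the counts.

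Retnla was 2.57%, 2.28% and 4.33% of the general macrophage sum in CD offspring and 1.28%, 1.23% and 1.63% in pLPD offspring. Clec10a was 4.04%, 3.65% and 3.53% in CD offspring and 2.92%, 2.52% and 3.35% in pLPD offspring. Cd163 was 6.68%, 6.89% and 7.98% against 5.82%, 6.30% and 6.43%. The F1 groups lay apart for these 3 genes on this scale too, whereas Mrc1 overlapped between the groups, at 13.5% ± 0.296 against 13.1% ± 1.38 (SD, n = 3 each). Timd4 was at 2.16% ± 0.133 and 2.21% ± 0.266 (SD, n = 3 each). In F0, Cd163 was 6.83% and 7.27% with CD and 4.87% and 5.50% with LPD, and Clec10a was 4.75% and 4.67% against 3.38% and 3.66%. Retnla in F0 was 8.91% and 8.27% with CD and 7.15% and 8.16% with LPD, so its groups lay apart by less than the gap between the LPD-fed mice.

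**Figure D4:**
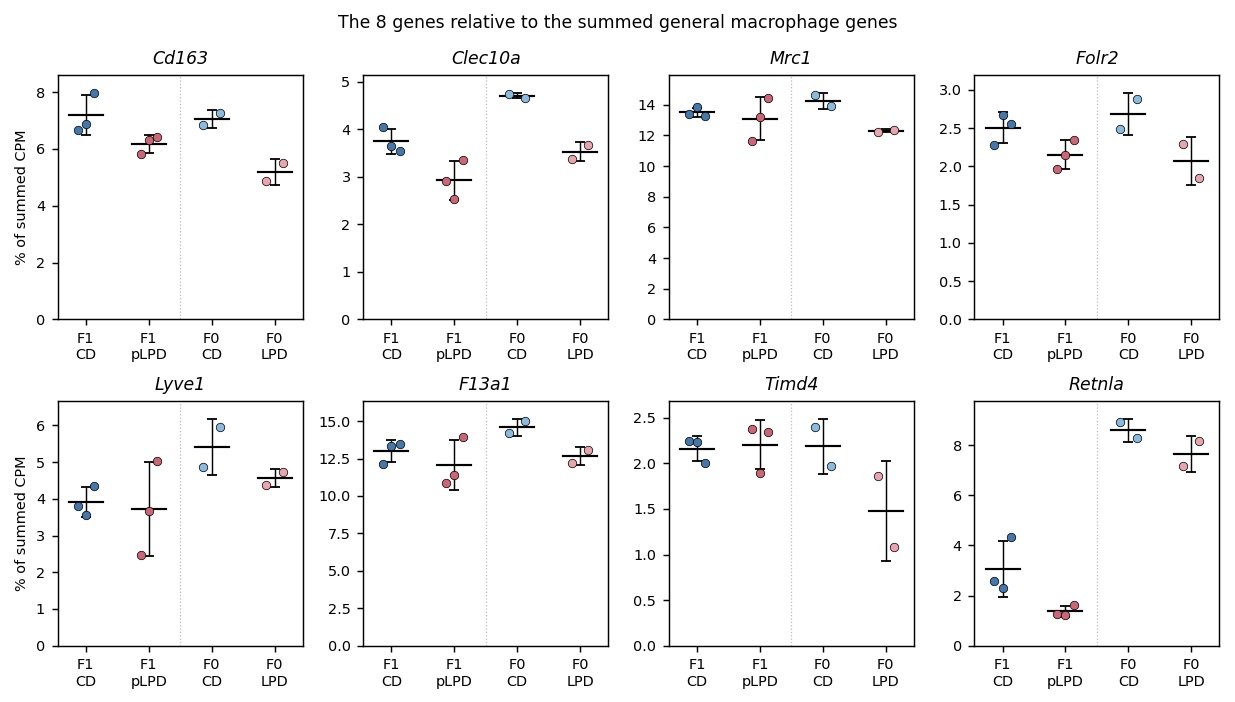
Each of the 8 genes as a percent of the summed CPM of 19 general macrophage genes, on the y axis from 0, for each mouse (points), with group means and 1 SD (n = 3 in F1, n = 2 in F0). In F1 the pLPD mice lie below the controls for Cd163, Clec10a and Retnla, and in F0 the LPD-fed mice lie below the CD-fed mice for all 8 genes.

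The intron reads of the 8 genes give a second view of the same mice. As intron CPM, the intron reads of a gene relative to all intron reads, Cd163 had 40.9 to 63.8 in CD offspring and 22.2 to 36.2 in pLPD offspring, and 128 to 150.2 in CD-fed against 91.3 to 105 in LPD-fed F0 mice. F13a1 had 355 to 413 against 154 to 286 intron CPM in F1 and 589 to 706 against 528 to 559.6 intron CPM in F0. Clec10a had 5.99 to 7.81 against 1.97 to 2.99 intron CPM in F1, from 25 to 33 against 8 to 15 intron reads per mouse. In F0 it had 9.52 to 11.8 against 8.34 to 9.40 intron CPM. Timd4 had 58.0 to 80.1 against 33.4 to 57.2 in F1 and 66.8 to 79.8 against 39.8 to 55.1 in F0. In Cd163, F13a1, Clec10a and Timd4 the intron CPM was lower in every mouse of the low-protein group in each generation. The unscaled intron reads of Timd4 were not, at 268 in replicate 2 of the pLPD offspring and 245 in replicate 1 of CD offspring. Intron reads as a whole made up 40.7% to 48.4% of protein-coding reads in pLPD offspring and 36.0% to 37.5% in CD offspring. The part of this difference in the intron CPM was not tested. Mrc1 had 133 to 179 intron CPM in CD offspring and 69.0 to 109 in pLPD offspring, while in F0 the ranges of 186 to 229 and 163 to 197 overlapped. Lyve1 showed the same pattern, with 6.66 to 8.04 against 1.49 to 4.19 intron CPM in F1 and an overlap in F0 at 20.9 to 32.4 against 20.9 to 26.0. In F0 the introns of Folr2 did not differ beyond their spread, and those of Retnla went against the exons. Folr2 had 3.70 to 5.20 against 2.05 to 2.96 intron CPM in F1. In F0 it had means of 3.53 with CD and 3.76 with LPD, from 16 to 20 intron reads per mouse, and the groups overlapped. Retnla had means of 1.27 with CD and 1.86 with LPD in F0, where both LPD-fed mice were above both CD-fed mice, from 5 to 10 intron reads per mouse, and its F1 groups overlapped with means of 1.39 and 0.489.

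The share of a gene's reads that lay on introns differed little between diets and widely between generations for some of the genes. In Cd163, introns held 41.2% to 42.7% of the reads in the 4 F0 mice and 19.9% to 23.7% in the 6 F1 mice. In Lyve1 they held 14.4% to 17.4% in F0 and 4.37% to 7.89% in F1, from as few as 8 intron reads per mouse. F13a1 had 61.8% to 63.0% in F0 and 49.9% to 54.2% in F1, Mrc1 had 33.2% to 37.9% and 28.7% to 31.8%, and Timd4 overlapped at 52.3% to 59.3% and 51.1% to 63.4%. Whether age, generation or library set goes with these differences cannot be told apart.

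**Figure D5:**
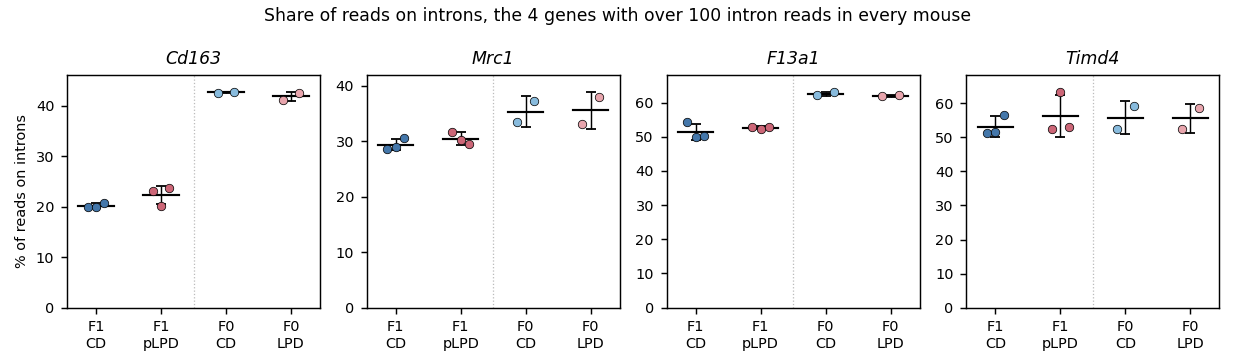
Percent of reads on introns, on the y axis from 0, in each mouse (points) for Cd163, Mrc1, F13a1 and Timd4, the 4 genes with the most intron reads (at least 119 in every mouse), with group means and 1 SD (n = 3 in F1, n = 2 in F0). The diet groups of a generation lie close together, and Cd163 is near 20% in F1 and above 41% in F0.

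The library properties that moved with the paternal diet in F1 were the intron share and the share of mitochondrial rRNA, both given above. In F0 the intron shares overlapped (36.4% to 37.9% with CD, 36.3% to 37.5% with LPD). Mitochondrial rRNA did not overlap there, at 9.59% to 9.85% with CD and 10.9% to 12.4% with LPD. Its part in the F0 differences was not tested and cannot be told apart from the diet. With each library's exon share as a term of the model, 0 of the 8 genes were called in F1, as only 10 genes of all were called lower, and the log2 fold change was -0.49 for Cd163, -0.68 for Clec10a, -1.51 for Retnla, -0.44 for Timd4 and 0.23 for Lyve1, the 1 gene that turned. Mrc1 went from -0.52 to -0.18, F13a1 from -0.58 to -0.24 and Folr2 from -0.70 to -0.38, so that these 3 moved by more than 1.5 times. Since the shares of the F1 groups do not overlap, the library property and the paternal diet cannot be told apart. Exon reads numbered 6351075 to 10044546 per mouse, so 3 reads, the limit a count of 0 allows, corresponded to 0.299 to 0.472 CPM, and this bound covers counting error only.

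Markers of other cells that carry some of the 8 genes were measured in the same mice. Lyve1 is shared with lymphatic endothelium, whose 8 markers had a median log2 fold change of -0.26 in F1 with 0 called (2 with an unadjusted p under 0.05 in edgeR), and -0.27 in F0 with 1 called, Mmrn1, which fell by 1.17 (SE 0.24, edgeR adjusted p = 0.0435). Their summed level was 303 to 323 CPM in CD offspring and 273 to 301 CPM in pLPD offspring, and 332 to 337 CPM against 259 to 319.5 CPM in F0. Prox1, the defining marker, was at 8.46, 8.09 and 10.4 CPM in CD offspring and 4.55, 6.46 and 5.28 CPM in pLPD offspring, apart from one another, with a log2 fold change of -0.70 (SE 0.23, edgeR adjusted p = 0.168). Flt4, the VEGF-C receptor of lymphatic vessels, was at -0.85 (SE 0.21, edgeR adjusted p = 0.0736), also lower in every pLPD mouse. These are the 2 markers with an unadjusted p under 0.05 in F1, and their difference lay in the same direction as that of Lyve1. In F0, Prox1 overlapped at 9.65 and 9.97 CPM with CD against 9.68 and 6.59 CPM with LPD, and Flt4 was at 15.6 and 16.04 CPM against 13.2 and 13.7 CPM. Clec10a is also found on dendritic cells, whose 10 markers had medians of 0.02 in F1 and -0.15 in F0 with 0 called in either (3 and 2 with an unadjusted p under 0.05). Their sum was 167 to 219 CPM in CD offspring, 189.6 to 209.5 CPM in pLPD offspring, 164 to 184 CPM with CD and 163 to 184 CPM with LPD. Flt3, which dendritic cells need, was at -0.01 (SE 0.23) in F1 and -0.09 (SE 0.18) in F0 on the log2 scale. The part of either cell type in the levels of Lyve1 and Clec10a was not tested.

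None of the inflammatory and monocyte genes passed the test. Of 11 tested in F1, 8 were below 0 with a median of -0.11, and of 13 in F0, 2 were below 0 with a median of 0.22; 0 were called by edgeR in either, and 3 and 4 had an unadjusted p under 0.05. Replicate 3 of the pLPD offspring, the highest pLPD mouse for all 8 genes, also had Il1b at 20.5 CPM, S100a9 at 17.9 CPM and Ccl3 at 7.92 CPM, against at most 2.00 CPM of any of these in the F0 mice and CD offspring. The 10 markers of B and T cells had medians of 0.23 in F1, with 10 above 0 and 0 called by edgeR (4 with an unadjusted p under 0.05), and 0.16 in F0, where Ms4a1 (CD20) rose by 0.46 (SE 0.09, edgeR adjusted p = 0.0351). Their sum was 462 to 527 CPM and 486 to 647 CPM in F1 and 421 to 484 CPM and 505 to 562 CPM in F0, controls first. Adipocyte markers had medians of 0.07 and 0.13 with 0 called (2 and 3 with an unadjusted p under 0.05), and Adipoq, the defining gene, was at 1162 to 2382 CPM in all mice. Markers of epithelium and muscle also moved with diet. The epithelial sum was 13.7 to 19.1 CPM in CD offspring and 1.06 to 3.64 CPM in pLPD offspring, with 3 of 4 tested genes called lower, and 3.25 to 3.83 CPM in CD-fed against 1.77 to 2.63 CPM in LPD-fed F0 mice, where none of the 6 passed the filter on low counts. The muscle sum was 86.1 to 169.7 CPM in CD offspring and 39.99 to 153 CPM in pLPD offspring, which overlapped, and 1481 to 2283 CPM in CD-fed and 709 to 969.6 CPM in LPD-fed F0 mice; the part of these tissues in the values of the 8 genes was not tested.

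Few genes of the signals known to act on these macrophages, or of the pathways the 8 genes serve, passed the test. Csf1r, the CSF1 receptor, was counted with the general macrophage genes above and was called lower in F1 (edgeR adjusted p = 0.0155). Of 15 other tested genes of CSF1, interleukin 4 and 13, interleukin 10 and interleukin 33 signalling, 0 were called in F1. Their median was -0.07, and 7 had an unadjusted p under 0.05. Of 16 in F0 the median was -0.01 and 1 was called. That gene was Irf4, a transcription factor of M2-like polarization, which fell by 0.68 in F0 (SE 0.10, edgeR adjusted p = 0.0164) and was at 0.30 (SE 0.11, edgeR adjusted p = 0.209) in F1. The genes that handle haemoglobin and haem, the cargo of Cd163, had medians of -0.15 in F1 and 0.18 in F0 over 16 tested genes, with 0 called by edgeR in either generation (2 and 5 with an unadjusted p under 0.05). Hp, haptoglobin, was at 0.15 (SE 0.18) and 0.22 (SE 0.15), and Hmox1, which breaks down haem, at -0.48 (SE 0.21) and 0.10 (SE 0.09), in F1 and F0 on the log2 scale. Of 13 genes for the uptake of dying cells, the pathway of Timd4, Axl fell by 0.55 in F1 (SE 0.12, edgeR adjusted p = 0.0489) together with Gas6, and 0 were called in F0 (4 with an unadjusted p under 0.05). Of 3 tested genes around fibrin cross-linking, Fn1, the matrix protein fibronectin, fell by 0.80 in F1 (SE 0.13, edgeR adjusted p = 0.0196). Axl, Gas6 and Fn1 were among 144 genes called lower in F1. That total was 10 with the exon share as a covariate and 17 to 370 without 1 mouse. The hyaluronan and folate genes had 0 called in F1 and F0, with medians of -0.20 and 0.14 and of 0.08 and -0.04; 2 and 1 hyaluronan genes and 3 and 2 folate genes had an unadjusted p under 0.05 in edgeR.

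Relatives of the 8 genes in their own families were measured as well. Mrc2, a mannose receptor family member of fibroblasts, rose by 0.71 in F0 (SE 0.14, edgeR adjusted p = 0.0435) and was at -0.48 in F1 (SE 0.11, edgeR adjusted p = 0.0636). Retn, which encodes the adipocyte hormone resistin, a relative of Retnla, fell by 0.78 in F0 (SE 0.13, edgeR adjusted p = 0.0234) and was at 0.24 in F1 (SE 0.14, edgeR adjusted p = 0.451). Cd163l1, a scavenger receptor related to Cd163, had 2.53 to 5.08 CPM in CD offspring and 6.19 to 12.4 CPM in pLPD offspring, opposite to Cd163, but did not pass (log2 fold change 1.24, SE 0.35, edgeR adjusted p = 0.113). Stab2, a hyaluronan receptor like Lyve1, was at -0.69 in F1 (SE 0.17, edgeR adjusted p = 0.0703), and Cd44, the widespread hyaluronan receptor, at 0.03 (SE 0.12). Izumo1r, Havcr1 and Havcr2 were at most at 6.60 CPM in any mouse and were not called by edgeR, and Folr1, F13b, Timd2, Retnlb and Retnlg had from 0 to 7 exon reads per mouse and were not tested.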

How the data were processed

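The members and the gene lists were chosen with earlier results of these data known, and so were the tests.
RNA of iWAT was sequenced by the authors after rRNA depletion with a directional kit as paired reads of 36 bases, and aligned with CLC Genomics Workbench against mm10. The deposited counts are whole-number read totals of each gene, made by the authors for exons (all, or uniquely matching), introns and the whole gene, not normalized. The deposited RPKM values were computed by the authors from total exon reads and were used only in 1 alternative. How strand was used in counting is not given in the sources used here, so reads of Folr2 and its antisense gene cannot be told apart. All other deposited columns were not used here.

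Total exon reads (6351075 to 10044546 per mouse) were analysed in R 4.3.3 with edgeR 4.0.16 (filterByExpr, TMM, quasi-likelihood F test, two-sided), in 1 fit per generation, with the generation-by-diet interaction taken from 1 fit of all 10 mice, with Benjamini-Hochberg adjustment over all genes tested and a threshold of 0.05. The standard error is the log2 fold change divided by the square root of F. Levels are CPM scaled by TMM over the 10 libraries, and deviations for correlations are of log2 CPM with 0.5 added. The fits were tested on simulated data with known changes. Libraries of 1 group differed by more than counting noise (chi-square per degree of freedom 4.59 to 13.1), so none was deposited in duplicate. No two-sided exact permutation test of single genes was used, since these designs cannot reach the threshold with it. Named genes are the 8 genes, their family relatives, the genes of each list past the threshold (up to 5, lowest adjusted p first), fixed defining markers, and the 5 genes (mean of at least 5 CPM) that varied most like Cd163 and Clec10a; some genes that meet this rule are not reported here. Coordinates are those of the deposited tables (mm10), which match GENCODE vM21 for 7 of the 8 genes, the start of Retnla differing by 1 base. Promoters are from RefSeq, and 36-base words were searched on both strands of GENCODE vM21 transcripts.

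The alternatives were DESeq2 1.42.0, no filter on low counts, at least 10 exon reads in every library, all 4 groups in 1 fit, the replicate number as a block, uniquely matching reads, reads of the whole gene, limma-trend (limma 3.58.1) on log2(RPKM + 0.1), DESeq2's size factors in edgeR, the geometric mean of the general macrophage genes in place of their sum, each mouse left out in turn and, added after the data were seen, each library's exon share as a covariate.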

Additional observations from a re-analysis of the deposited data

Results flagged for a closer look

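The diet effects of the generations differed for several genes named above, by edgeR's test of the difference itself with Benjamini-Hochberg adjustment; values are F1 minus F0 on the log2 scale. Among macrophage genes it was -0.93 for Cd209f (adjusted p = 0.0190), lower in both generations but more so in F1, and -0.70 for Adgre1 (adjusted p = 0.0353). Csf2ra, a chain of the GM-CSF receptor, was lower in every pLPD mouse and higher in every LPD-fed mouse (-1.03, adjusted p = 0.0306), and Irf4 moved the opposite way (0.97, adjusted p = 0.00965). Of the folate genes, Mthfd1 was at 0.71 (adjusted p = 0.0462), with groups apart in opposite directions. Of the relatives of the 8 genes, Mrc2 was at -1.21 (adjusted p = 0.0153) and Retn at 1.01 (adjusted p = 0.0454). Cd163l1 had its groups apart in opposite directions, but the difference of 2.10 did not pass (adjusted p = 0.126). The muscle gene Myh2 was at 4.01 (adjusted p = 0.0393), with 102 and 212 CPM in the CD-fed mice. Age, generation and library set cannot be told apart in any of these.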

How the results depend on the processing

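All 8 genes stayed lower with the low-protein diet in each alternative and without each mouse, in F1 and in F0, except Lyve1 in F1 with the exon share of the library as a covariate, where it was 0.23. The Timd4 difference between generations, 0.11, turned to -0.25 without replicate 2 of the LPD-fed mice and ranged up to 0.62 without replicate 1. The causes were not tested. The depth limits genes near 0.299 to 0.472 CPM, not the 8 genes.

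In F1, 20 genes were called higher and 144 lower in all, among them 4 of the 8 genes, 6 other resident genes and 6 general macrophage genes. DESeq2 gave 74 and 269 with 6 of the 8 and 12 resident genes. No filter on low counts gave 234 and 564, with 8 of the 8, 16 resident and 10 general genes. All groups in 1 fit gave 62 and 277 with 6 of the 8, 10 resident and 10 general genes. Uniquely matching reads called 42 higher and 5 of the 8 genes lower, and at least 10 exon reads in every library also called 5 of the 8. Reads of the whole gene called 2 of the 8 and 3 general genes, and limma-trend on RPKM called 2 genes higher, 2 of the 8 and 3 general genes. The exon share as a covariate gave 1 and 10, with 0 of the 8, 0 resident and 0 general genes. Leaving out 1 mouse at a time gave 1 to 140 higher and 17 to 370 lower, 0 to 6 of the 8 genes, 2 to 10 resident and 0 to 6 general genes; the lowest count of the 8 was without replicate 2 of the pLPD offspring.

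In F0, 172 genes were called higher and 192 lower, among them 2 of the 8, 1 resident and 0 general genes. DESeq2 called 0 of the 8 and 0 resident genes. No filter gave 633 and 710, with 4 of the 8, 3 resident and 1 general gene. All groups in 1 fit gave 110 and 65, with 0 of the 8 and 0 resident genes. Reads of the whole gene called 0 of the 8. Limma-trend on RPKM gave 30 and 52, with 0 of the 8 and 0 resident genes. The exon share as a covariate gave 473 and 572, with 4 resident and 1 general gene. Leaving out 1 mouse at a time gave 68 to 281 higher and 37 to 223 lower, 0 to 1 of the 8, 0 to 2 resident and 0 to 0 general genes, and left 1 mouse in a group, assumed to vary like the others.

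The difference between generations was called in 54 genes higher and 135 lower, in 314 and 576 without a filter, in 9 and 65 by limma-trend, and in 5 to 132 and 14 to 263 without 1 mouse.

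Replicate numbers are shared between diet groups, but the deviations of same-numbered mice had r of 0.0530, 0.00416 and 0.000921 in F1 and 0.0546 in F0, so the numbers were not taken to pair the mice. With the replicate number as a block, F1 gave 48 higher and 212 lower with 6 of the 8 and 10 resident genes. In that setting F0 gave 656 and 735 with 4 of the 8, 5 resident and 1 general gene, and the difference between generations gave 83 higher. Relative to the geometric mean of the general macrophage genes, 4 of the 8 genes lay apart in F1 (Folr2 added) and 8 in F0, against 3 and 8 for their sum.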

Other observations

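General macrophage genes included 4 of 19 that lay apart in opposite directions, lower in every pLPD offspring and higher in every LPD-fed mouse: Fcgr3, Aif1, Tyrobp and Lgmn, chosen here after their values were seen. Of all 13870 genes tested in both generations, 2.73% did so. Tyrobp, the signalling adaptor of several macrophage receptors, had 24.0 ± 2.98 CPM in CD offspring and 16.4 ± 0.192 in pLPD offspring (SD, n = 3 each), and 20.3 ± 0.344 with CD and 23.3 ± 0.518 with LPD in F0 (SD, n = 2 each). Lgmn, a lysosomal protease, had 69.6 ± 3.03 and 55.0 ± 8.20 CPM in F1 (SD, n = 3 each) and 71.6 and 71.8 CPM with CD against 81.0 and 82.7 CPM with LPD in F0. None of the 4 passed edgeR's test of the difference between generations, with F1 minus F0 at -0.81 for Fcgr3 (adjusted p = 0.0768), -0.89 for Aif1 (adjusted p = 0.463), -0.75 for Tyrobp (adjusted p = 0.0612) and -0.53 for Lgmn (adjusted p = 0.117). None of the 8 genes described above was in this pattern. They were picked with their levels by diet group known, so nothing is read from this.

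Kit, the stem cell factor receptor of mast cells, fell by 0.54 in F1 (SE 0.11, edgeR adjusted p = 0.0448), the 1 gene called of 5 tested markers of eosinophils and mast cells. The other 4 were at -0.30 for Cpa3, -0.13 for Tpsb2, 0.16 for Mcpt4 and 0.42 for Il5ra. The median was -0.13 in F1 and -0.24 in F0, where 0 of 5 were called by edgeR and 0 had an unadjusted p under 0.05. Kit was 1 of 144 genes called lower in F1. That total was 10 with the exon share as a covariate and 17 to 370 without 1 mouse. Blood endothelial markers had medians of -0.38 in F1 and -0.07 in F0 on the log2 scale, and adipose progenitor markers medians of -0.36 and -0.23; 0 genes of either list were called by edgeR, while 2 and 2 endothelial and 5 and 2 progenitor markers had an unadjusted p under 0.05.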
